A study of Mus musculus with 7 samples.

Results

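The cells described here were gated as smooth muscle and come from a young and an old mouse. They were chosen by their RNA counts: at least 1 UMI (unique molecular identifier, a tag by which each RNA molecule is counted once) of *Myh11*, at least 1 UMI of *Cnn1*, *Actg2* or *Des* together, and 0 UMIs of the pericyte genes *Rgs5* and *Kcnj8*, the leukocyte gene *Ptprc* and the endothelial gene *Pecam1*. Only cells with at least 500 genes and at most 10% of UMIs on mitochondrial genes were eligible, and these are called kept cells. The gate took 3944 of the 18277 kept cells of both libraries, which is 1838 of 9164 cells (20.1%, exact binomial 95% interval 19.2 to 20.9) in the young library and 2106 of 9113 (23.1%, 22.2 to 23.99) in the old one. The whole series held 40342 kept cells of 53352 deposited. Intervals on cells and UMIs throughout cover counting error only, not the spread between mice.

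The study profiled single cells from dissociated tissue of 23 mice that the labels call seminal vesicle. The young mouse was an FVB/NJ mouse of 3 months and the old one an FVB/NJ mouse of 18 months, both on the control diet and each run as a library of its own, so age rests on 1 mouse a group and has no replicate check. For comparison, the same gate was applied to 3 single-mouse libraries of FVB/NJ mice of 3 months fed a control diet, a diet rich in fat or one poor in protein (the diet single libraries, called control, high fat and low protein, with 15, 17 and 15 gated cells) and to a tagged pool of 8 FVB/NJ mice of 3 months, 2 for each of these diets and 2 under caloric restriction (the diet pool, 12 to 114 gated cells a mouse, 360 in all). A pool of 10 C57BL/6J mice, of 3, 20 and 28 months some given rapamycin, gave 35 gated cells, at most 6 in a mouse, and was not compared further. Gated cells were shallow: their median was 1442.5 UMIs in the young and 1710 in the old library, with 3367984 and 5246239 UMIs in total, against 33014 to 54050 in total for a diet single library and 41011 to 751817 for a pool mouse. The young and old libraries shared 30 deposited barcodes, of which 20 were kept cells and 0 were gated.

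The tissue label did not hold in the young and old libraries. *Svs5*, a seminal vesicle secretion gene, stood at 3.55 CPM (UMIs scaled to a common total, here over all kept cells, with no gene length in it) in the young and 3.04 CPM in the old library, while the other 21 mice ranged upward from 34607 CPM. In its place both libraries held genes of the epididymal epithelium. *Gpx5*, a secreted peroxidase of the epididymis, reached 30504 and 44204 CPM, and was at most 0.546 CPM in any other mouse. *Lcn8*, an epididymal lipocalin, was at 2814 and 12047 CPM and at most 0.220 CPM elsewhere. The samples are therefore called the libraries labelled young and old, and every comparison with the diet libraries sets muscle next to one epithelium beside muscle next to another.

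Smooth muscle lines the ducts and glands of the male tract, where it moves sperm and expels secretions, and it also forms the wall of arteries. Its contraction depends on calcium entry, on phosphorylation of myosin light chain by a kinase, and on actin and myosin forms such as those made by *Acta2* and *Myh11*, with calponin (*Cnn1*) and desmin (*Des*) as further members of the contractile apparatus. Many of these genes are switched on by serum response factor and its partner myocardin at a short promoter element named the CArG box. Hedgehog signals from epithelium help to pattern the muscle around it, and *Hhip*, itself a Hedgehog target, encodes a membrane protein that binds and dampens the ligand.

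The CArG box is shown in the promoters of a pair of the muscle genes described below, since these are the sequences through which the contractile genes are commonly controlled. The 250 bases before the start site are given 5′ to 3′ on the gene's own strand, from RefSeq on GRCm38.p6, with the CArG box in capitals. *Acta1*, skeletal alpha actin, is on the minus strand at chr8:123894776-123895025, and *Myl9*, the regulatory light chain of smooth muscle myosin, on the plus strand at chr2:156775214-156775463.
Acta1: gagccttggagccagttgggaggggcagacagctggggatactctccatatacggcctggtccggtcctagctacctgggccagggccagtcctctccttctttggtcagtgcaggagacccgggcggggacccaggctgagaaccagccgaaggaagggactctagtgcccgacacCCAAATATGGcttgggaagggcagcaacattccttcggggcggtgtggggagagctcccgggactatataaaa
Myl9: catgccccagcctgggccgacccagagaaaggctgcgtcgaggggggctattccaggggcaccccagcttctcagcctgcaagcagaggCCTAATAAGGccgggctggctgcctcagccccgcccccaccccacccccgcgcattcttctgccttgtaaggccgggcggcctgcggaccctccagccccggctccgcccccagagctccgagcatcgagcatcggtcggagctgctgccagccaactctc
A strict CArG box, searched on both strands (its reverse complement is the same pattern), was found in the 300-base windows of 2 of the 21 contractile genes with an entry and of 4 of 16 genes of the striated-type list, against 1.63% of all 32851 windows. A listed gene counted if any of its windows held the box, while the 1.63% is per window, so the units differ. The 250 bases before the start sites of *Tnnt2*, *Hhip* and *Isl1* held none. This is a description of letters in a window and not of binding.

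*Myh11* stood at 2583 CPM in the gated cells of the young library and at 1940 CPM in those of the old one, and *Cnn1* at 921 and 640 CPM. These genes chose the cells, so their levels carry no test. The gate gene *Actg2* was not confined to gated cells: in the other kept cells it stood at 298 CPM in the young and 941 CPM in the old library. *Cnn1* stood at 31.8 and 22.3 CPM there and *Des* at 89.1 and 58.4 CPM. How many cells passed the gate through *Actg2* alone was not tested. At the edge of the gate, the 106 young cells with exactly 1 UMI of *Myh11* and 1 of the second group held 5112 CPM of *Acta2*, and the 122 such old cells 3979 CPM. The 190 young and 119 old cells just outside, with 1 *Myh11* UMI and none of the second group, held 2632 and 2178 CPM. Cells far outside, with neither, held 84.5 and 68.1 CPM. *Dcn*, the proteoglycan decorin of fibroblasts, ran the other way across the edge, with 2847 CPM just inside and 3197 CPM just outside in the young library against 1464 CPM in young cells with at least 2 UMIs of each side.

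The gated cells shared a programme beyond the genes that chose them. Of 2707 genes with at least 50 CPM in the gated cells of both libraries, 34 were at least 10 times as high as in the other kept cells of the same library in both. No test is given, because these genes move with those of the gate. Contractile genes led by level: *Acta2* stood at 9516 and 8073 CPM in gated cells against 652 and 460 CPM in the others, *Myl9* at 4406 and 3598 CPM, *Tagln* (transgelin, an actin-binding protein) at 4058 and 3227 CPM and *Tpm2* (beta tropomyosin) at 3937 and 2835 CPM. *Mylk*, the kinase that phosphorylates the light chain, stood at 1738 and 1555 CPM. *Myocd*, which encodes myocardin, was low at 82.5 and 58.1 CPM but 12.6 and 21.4 times its level in the other cells. Thin filament genes usually tied to striated muscle were among the 34. *Tnnt2*, cardiac troponin T, had the highest ratio of all in the order by the lower library, 29.7 in the young and 28.8 in the old. *Tnnt1*, slow skeletal troponin T, stood at 212 and 269 CPM and *Acta1* at 126 and 102 CPM. Of the 18 striated-type genes listed, 4 reached 20 CPM in at least 1 of these libraries: *Tnnt1*, *Tnnt2*, *Acta1* and *Myh10*, a non-muscle myosin. Signalling genes in the set were *Rspo3*, a Wnt-enhancing ligand, at 456 and 214 CPM, *Inhba*, an activin subunit, at 125 and 185 CPM, *Chrdl1*, a BMP antagonist, at 213 and 278 CPM, and *Hhip* at 433 and 282 CPM. The homeobox gene *Hoxc8* was 12.4 and 20.2 times its level in the other cells.

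RNA of other cell types was measured in the gated cells as well, by the sum of each marker list. The 14 fibroblast markers summed to 2789 CPM in young and 2199 CPM in old gated cells, with *Dcn* the most abundant. The 10 pericyte markers summed to 176 and 99.9 CPM, the 11 endothelial markers to 156 and 131 CPM and the 12 leukocyte markers to 120 and 55.3 CPM, with the excluded genes of the gate at 0. Epithelial RNA was the largest foreign part. The 20 epididymal genes summed to 14404 CPM in young and 41693 CPM in old gated cells, led by *Gpx5*, against 65286 and 110358 CPM in the other kept cells. In all, 225 young and 450 old gated cells had at least 1 UMI of *Epcam*, *Krt8* or *Krt5*. These had medians of 3068 and 4193.5 UMIs, above the medians of all gated cells. No doublet caller was run, and whether these droplets held a muscle and an epithelial cell was not tested. Outside them *Lcn8* stood at 12.4 to 60.8 CPM in the 3 classes of young cells described below and at 131 to 501 CPM in those of old cells, and at 3395 and 11124 CPM in the cells with epithelial UMIs.

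*Tnnt2* and *Hhip* were both present in the gated cells, but they did not mark the same cells to the same degree. Both were named as markers with results known, so their levels are a description. With each cell thinned to 2000 UMIs, so that depth was equal, *Tnnt2* had a UMI in 68 of 461 young cells (14.8%, exact binomial 95% interval 11.6 to 18.3) and 254 of 746 old cells (34.05%, 30.6 to 37.6). *Hhip* had a UMI in 219 young cells (47.5%, 42.9 to 52.2) and 240 old cells (32.2%, 28.8 to 35.7). This left out 1377 young and 1360 old gated cells that were shallower. Thinning to 1000 UMIs kept 1607 and 2011 cells and gave *Tnnt2* in 21.0% and 26.6% and *Hhip* in 30.6% and 26.8%. The cells deep enough for 2000 UMIs held more epithelial RNA: *Krt8* had a UMI in 25.6% of young and 33.2% of old cells at 2000 UMIs, and in 7.59% and 11.04% at 1000 UMIs. Its part in the shares of *Tnnt2* and *Hhip* was not tested. Without thinning the shares were 26.4% and 36.7% for *Tnnt2* and 40.0% and 38.9% for *Hhip*. In epithelial cells of the young library, with *Epcam* and *Krt8* and no *Myh11*, 0.274% held *Tnnt2* and 0.503% *Hhip* at 2000 UMIs (median depth 2622 UMIs before thinning). In cells with *Pdgfra* and *Dcn* and no *Myh11* the shares were 4.11% and 8.22% (median 1568 UMIs). The shares in gated cells lay above these for both genes. At 2000 UMIs, both were seen in 39 young and 77 old cells, *Tnnt2* alone in 29 and 177, *Hhip* alone in 180 and 163, and neither in 213 and 329.

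The same genes were measured in the gated cells of the other FVB/NJ mice. After TMM scaling (trimmed mean of M-values, a correction for composition) and as CPM over the tested genes, *Tnnt2* stood at 312 CPM in the young and 362 CPM in the old library. In the diet single libraries it was 101, 240 and 124 CPM for the control, high fat and low protein mouse, resting on 3, 7 and 3 UMIs. In the 8 pool mice it ran from 0 over a median of 223 to 784 CPM. The highest mice of all 13 were both caloric restriction mice of the pool, at 784 and 748 CPM, and the old and young mouse held the fourth and the fifth place, so that levels inside the range of the pool surround them. *Hhip* stood at 470 CPM in the young and 321 CPM in the old library, at 439, 343 and 787 CPM in the diet single libraries and between 152 and 621 CPM in the pool, with a median of 450 CPM. Here the same caloric restriction mice were the lowest of the 13, at 152 and 167 CPM, and the young and old mouse fell within the spread of the others.

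**Figure D1:**
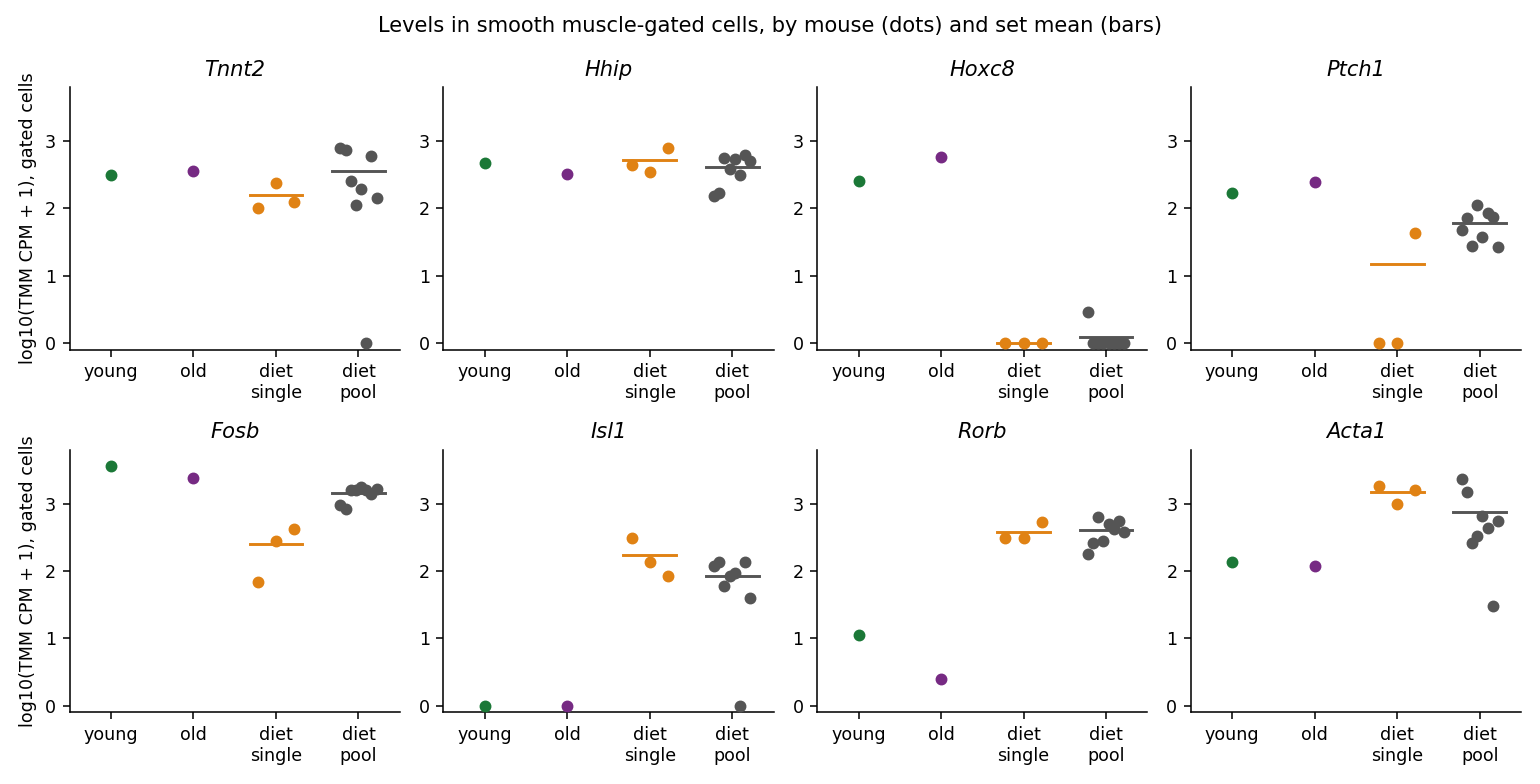
Levels of 8 genes in gated cells as log10 of TMM-scaled CPM plus 1 (vertical axis), with 1 dot a mouse for the young and the old library, the 3 diet single libraries and the 8 diet pool mice, and a bar at the mean of each set of several mice. *Tnnt2* and *Hhip* of the young and old library lie among the other mice, *Hoxc8* is high only in the libraries labelled young and old, *Rorb* is lowest there, and *Isl1* is at 0 there and in 1 pool mouse.

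The gated cells were not of 1 kind. The 3 pairs of genes used to sort them were picked after the data had been seen, and each cell without a UMI of *Epcam*, *Krt8* or *Krt5* was put in the class whose pair had the most UMIs: *Tnnt2* with *Postn* (periostin, a matrix protein), *Sfrp2* with *Wif1* (secreted inhibitors of Wnt ligands), or *Rergl* with *Sncg* (genes found in vascular smooth muscle). The *Tnnt2*/*Postn* class held 534 of 1838 young cells (29.1%, exact binomial 95% interval 27.0 to 31.2) and 817 of 2106 old cells (38.8%, 36.7 to 40.9). The *Sfrp2*/*Wif1* class held 275 young cells (15.0%, 13.4 to 16.7) and 126 old cells (5.98%, 5.01 to 7.08). The *Rergl*/*Sncg* class held 213 young (11.6%, 10.2 to 13.1) and 99 old cells (4.70%, 3.84 to 5.69). Another 569 young and 597 old cells had no UMI of any pair, 22 and 17 were tied, and 225 and 450 held epithelial UMIs. The classes are ranges of a count and not cell types: 381 of 1613 young and 336 of 1656 old cells without epithelial UMIs led another class by exactly 1 UMI. These totals include the 569 and 597 cells with no UMI of any pair. The share among cells that were put in a class is therefore larger. With 1 mouse an age, the shares compare these libraries and carry no test. By the same counts, the *Sfrp2*/*Wif1* class held 148 of 360 gated cells of the diet pool (24.6% to 68.8% in a mouse) and 21 of 47 in the diet single libraries. The *Tnnt2*/*Postn* class held 97 (4% to 38.6% in a mouse) and 5. Of these 97 pool cells, 44 and 31 came from the 2 caloric restriction mice.

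**Figure D2:**
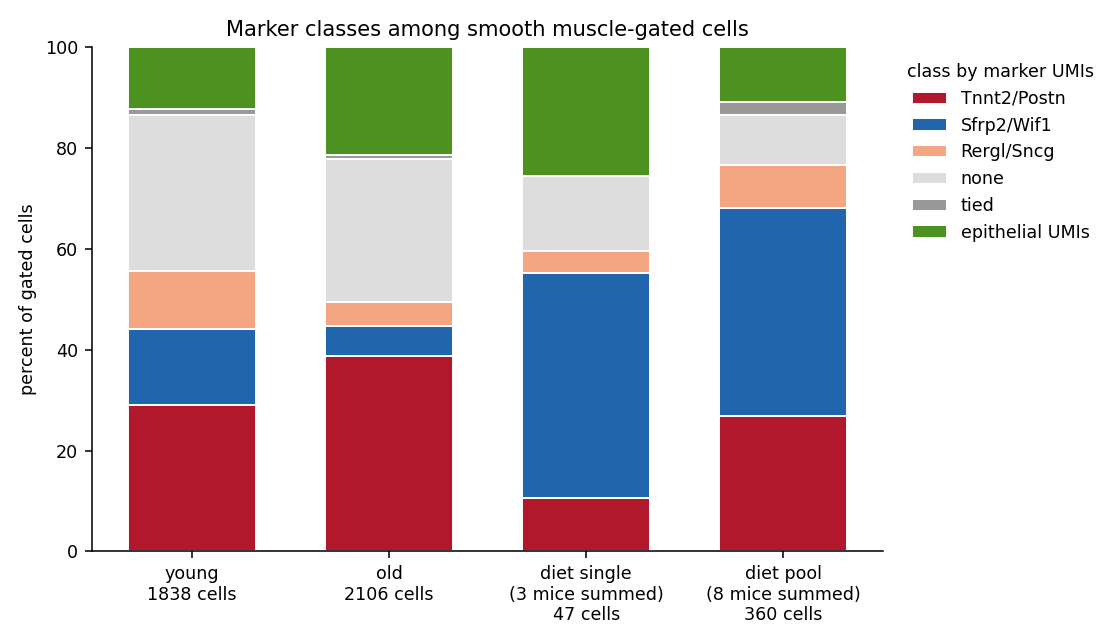
Share of gated cells (percent, vertical axis) in each marker class for the young and the old library and, summed over mice, the diet single libraries and the diet pool. The *Sfrp2*/*Wif1* class is 15.0% of young and 5.98% of old gated cells, and the *Tnnt2*/*Postn* class 29.1% and 38.8%.

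Genes that took no part in the sorting differed between the classes in both libraries. For each class, genes were listed that reached 50 CPM and at least 4 times either other class in both libraries. How many genes reached 50 CPM in a class was not counted, so the numbers listed have no share beside them. In the *Rergl*/*Sncg* class of the old library, a level of 55.7 CPM is 9 UMIs. The *Rergl*/*Sncg* class had 152 listed genes. Among them were *Crip1*, a LIM-domain protein, at 5984 and 5334 CPM against at most 159 CPM in the other classes, *Olfr558* and *Olfr78*, receptors known from vascular smooth muscle, at 92.3 and 55.7 CPM and at 92.3 and 86.6 CPM, *Gja4*, the arterial connexin, at 208 and 217 CPM, and *Nrarp*, a Notch target, at 349 and 248 CPM. *Acta2* was at its highest in this class, with 21475 and 25147 CPM, while *Cnn1* stood at only 340 and 241 CPM. *Tnnt2*, a gene of the sorting, had 0 UMIs there in both libraries, and *Hhip* stood at 23.1 and 18.6 CPM against 519 and 410 CPM in the *Tnnt2*/*Postn* class.

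In the *Sfrp2*/*Wif1* class, 21 genes met the same rule. *Cxcl14*, a chemokine, led by level with 2550 and 1404 CPM, followed by *Smoc2*, a matricellular protein, with 2195 and 1400 CPM. *Lef1*, a transcription factor of Wnt signalling, stood at 199 and 131 CPM against at most 9.06 CPM in either other class, and *Wnt2* at 51.5 and 61.2 CPM. The posterior homeobox genes *Hoxa10*, at 248 and 237 CPM, and *Hoxd10*, at 114 and 61.2 CPM, belonged to it too. *Hhip* was highest in this class, at 852 and 637 CPM. *Dcn* stood at 3965 and 2832 CPM, while *Acta2* remained at 9600 and 9895 CPM. In the cells with *Pdgfra* and *Dcn* and no *Myh11*, *Dcn* was at 6011 CPM in the young and 1947 CPM in the old library, above the class in the young and below it in the old, and *Acta2* at 907 and 777 CPM.

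The *Tnnt2*/*Postn* class had 9 such genes. *Pcp4*, a calmodulin-binding peptide, stood at 199 and 173 CPM against at most 7.10 CPM in the other classes, *Chrdl1* at 492 and 604 CPM, *Vegfd*, a lymphatic growth factor, at 104 and 84.8 CPM, and *Slit2*, a guidance ligand, at 60.8 and 54.3 CPM. *Hoxc6*, at 73.8 and 93.0 CPM, and *Hoxc9*, at 54.3 and 44.1 CPM, were higher there than in the other 2 classes as well. Across single cells thinned to 2000 UMIs, genes were ordered by the lower of the young and old coefficients. *Postn* led for *Tnnt2* (Pearson's r 0.495 over 461 young and 0.445 over 746 old cells), although *Mylk* was higher in the old library alone (0.257 and 0.478). *Timp3*, an inhibitor of matrix proteases, led for *Hhip* (0.385 and 0.345). These cells share a library and a depth, so the coefficients are descriptions.

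**Figure D3:**
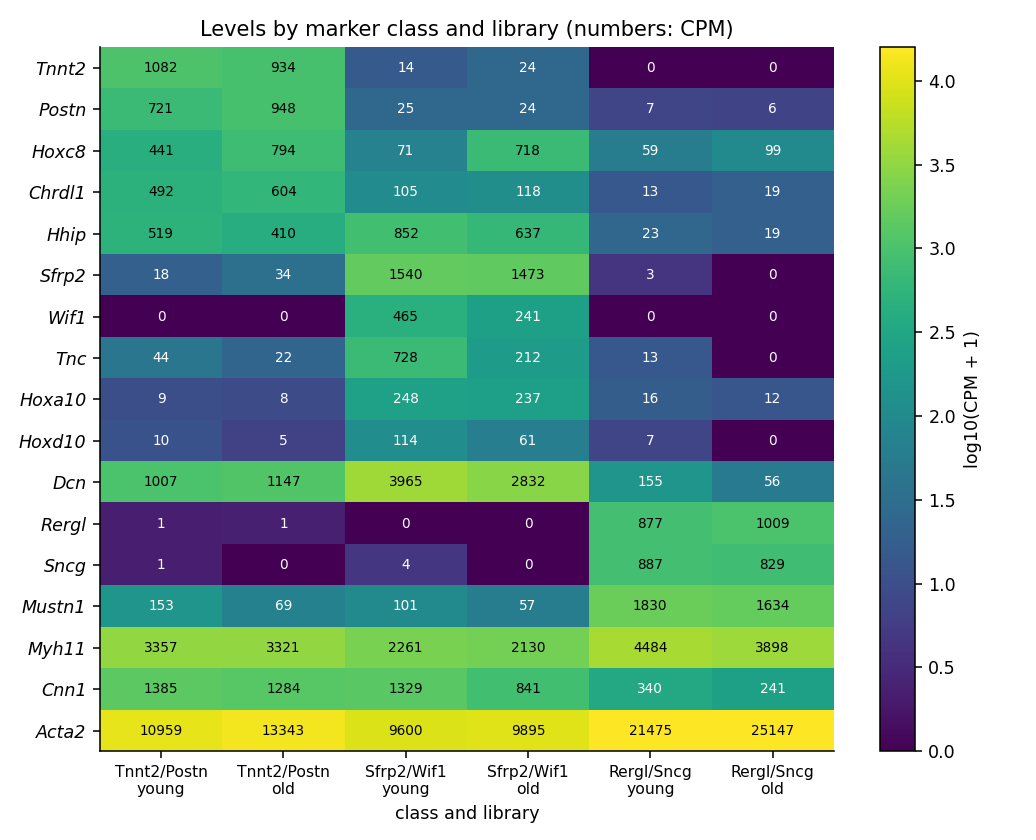
CPM of 17 genes (numbers in the cells, colour as log10 of CPM plus 1) in each marker class of the young and the old library. *Hhip* is highest in the *Sfrp2*/*Wif1* class and lowest in the *Rergl*/*Sncg* class, and *Hoxc8* of the *Sfrp2*/*Wif1* class is 71 CPM in the young and 718 CPM in the old library.

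Between the old and the young library, 5.63% of all genes tested passed 2-fold. Of the 19 listed contractile genes 0 did, which cannot be told from that share in a list this short. Some matrix, Wnt and homeobox genes passed it, and the lists were not tested against each other. Muscle genes outside the contractile list passed it too, such as *Flnc*, the muscle filamin, which went from 197 to 82.0 CPM. Genes with at least 20 CPM in at least 1 of the libraries numbered 6363, and folds were taken on CPM plus 1. A gene could thus be measured only through the library where it was higher, so counts of list members past 2-fold carry no test. Of these genes 240 were past 2-fold higher in the old library (3.77% of genes tested) and 118 past 2-fold lower (1.85%), together 5.63%, and the median log2 ratio was 0.04. When the cells with *Epcam*, *Krt8* or *Krt5* were left out, 94 were higher and 117 lower. None of this can be told apart from a difference between 2 mice or 2 dissections, because each age is 1 mouse.

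Of the 19 contractile genes outside the gate that were measured, 0 passed 2-fold in either direction, where 5.63% of all genes tested did. Their median log2 ratio was -0.47, against 0.04 over all genes tested. *Acta2*, at 9516 CPM in the young and 8073 CPM in the old library, had a log2 ratio of -0.24, *Tpm1* went from 4206 to 2812 CPM (-0.58), and *Synm*, the filament protein synemin, from 244 to 144 CPM (-0.76), the most of the list. The epididymal list moved the opposite way in the same cells: 18 of its 20 genes were past 2-fold higher, with a median log2 of 1.64, and its sum grew from 14404 to 41693 CPM. In the *Tnnt2*/*Postn* class, which has no *Epcam*, *Krt8* or *Krt5* UMIs, *Acta2* stood at 10959 CPM in the young and 13343 CPM in the old library, and *Myh11* at 3357 and 3321 CPM. In the cells without a UMI of any pair, which lack these epithelial UMIs too, *Acta2* stood at 9376 and 9175 CPM (log2 -0.03). *Myh11* stood at 2607 and 1963 CPM there (log2 -0.41, as in all gated cells) and *Cnn1* at 802 and 543 CPM. *Myh11* and *Cnn1* chose the cells, so their levels carry no test.

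The 4 striated-type genes of 18 and the 6 Hedgehog genes of 14 that reached 20 CPM were within 2-fold. Of all genes tested 5.63% passed 2-fold, and lists this short cannot be told from that share. *Tnnt2* stood at 288 and 317 CPM (95% Poisson intervals 270 to 306 and 302 to 333) and *Hhip* at 433 and 282 CPM (412 to 456 and 268 to 296). Of the other Hedgehog genes, *Ptch1*, the receptor and a target of the pathway, stood at 153 and 216 CPM, *Gas1*, a co-receptor, at 171 and 221 CPM, and *Gli1*, the transcription factor, at 23.5 and 19.8 CPM. In the list of 12 calcium-handling genes measured, 1 was past 2-fold lower, where 1.85% of all genes tested were: *Pln*, the inhibitor of the calcium pump, at 30.9 and 14.3 CPM in all gated cells and at 221 and 291 CPM within the *Rergl*/*Sncg* class but 21.1 and 5.37 CPM (17 and 5 UMIs) in cells without a UMI of any pair, while *Atp2a2*, the pump itself, stood at 444 and 453 CPM.

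Of 8 receptors and effectors measured, 5 were past 2-fold lower in the old library and 0 higher, where 1.85% and 3.77% of all genes tested were. *Gucy1a1* and *Gucy1b1*, the subunits of the nitric oxide sensor, went from 97.1 to 36.4 CPM and from 27.9 to 11.8 CPM. *Npy1r*, a neuropeptide Y receptor, went from 49.3 to 18.1 CPM, *Avpr1a*, a vasopressin receptor, from 25.8 to 8.39 CPM, and *Ednrb*, an endothelin receptor, from 20.5 to 8.20 CPM. *Gucy1b1*, *Npy1r*, *Avpr1a* and *Ednrb* reached the 20 CPM needed to be measured only in the young library, where they were higher. The count of lower receptors is therefore a description and carries no test. *Pde5a*, which degrades cyclic GMP, was at 75.1 and 72.0 CPM. The vascular smooth muscle list moved beside them, with 5 of 10 measured genes past 2-fold lower: *Mustn1* went from 323 to 116 CPM. Within the *Rergl*/*Sncg* class, which made up 11.6% of young and 4.70% of old gated cells, *Npy1r* stood at 356 CPM in the young and 415 CPM in the old library, *Ednrb* at 109 and 118 CPM, *Avpr1a* at 138 and 136 CPM, *Gucy1b1* at 208 and 217 CPM and *Gucy1a1* at 649 and 545 CPM. *Mustn1* stood at 1830 and 1634 CPM there. All of these were within 2-fold inside the class. In cells without a UMI of any pair they were lower in the old library, *Npy1r* at 34.8 and 6.44 CPM (28 and 6 UMIs), *Avpr1a* at 33.5 and 9.66 CPM, *Gucy1b1* at 24.8 and 8.59 CPM, *Ednrb* at 24.8 and 12.9 CPM and *Gucy1a1* at 69.6 and 38.6 CPM, the last 2 within 2-fold.

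The genes named by size were 5 higher and 12 lower in the old library, from 5 and 66 genes that met the rule. *Tnc*, the matrix protein tenascin C, went from 211 CPM (95% Poisson interval 196 to 228) to 26.7 CPM (22.4 to 31.5), a 7.67-fold lower level. *Wif1* went from 87.0 to 11.6 CPM, *Mybpc1*, a myosin-binding protein, from 84.6 to 14.9 CPM, *Pcsk1n*, a protease inhibitor, from 151 to 41.4 CPM, *Ltbp1*, which stores TGF-beta in the matrix, from 141 to 38.7 CPM, and *Col8a1*, a short-chain collagen, from 61.2 to 18.3 CPM. *Dner*, a Notch ligand, went from 50.8 to 13.5 CPM and *Dach1*, a transcription factor, from 116 to 35.3 CPM. Each was also lower in the other kept cells, *Tnc* from 15.1 to 3.58 CPM. Most of these genes belonged to the *Sfrp2*/*Wif1* class, which was itself rarer in the old library. Inside that class *Tnc* went from 728 to 212 CPM, *Ltbp1* from 371 to 118 CPM and *Col8a1* from 197 to 85.7 CPM. *Dach1* went from 296 to 143 CPM and *Mybpc1* from 201 to 97.9 CPM there, all of these past 2-fold. *Pcsk1n* (554 to 363 CPM), *Dner* (172 to 118 CPM) and the sorting gene *Wif1* (465 to 241 CPM) were within 2-fold inside the class. With all cells of the class left out the log2 ratio of *Tnc* was -2.55 against -2.94 with them. *Pcsk1n* was then at -1.43, *Dner* at -1.54, *Mybpc1* at -2.40, *Ltbp1* at -1.43, *Dach1* at -1.38 and *Col8a1* at -1.12, all past 2-fold. In cells without a UMI of any pair *Pcsk1n* went from 130 to 40.8 CPM and *Dner* from 43.5 to 16.1 CPM. *Col8a1* was within 2-fold there (41.0 to 25.8 CPM).

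Of the remaining named genes, *Hbb-bs* and *Hba-a1*, globins of red blood cells whose near-identical copies can share reads, went from 525.5 to 2.10 CPM and from 268 to 1.33 CPM. In the other kept cells *Hbb-bs* went from 491 to 34.6 CPM and *Hba-a1* from 239 to 16.7 CPM. *Akr1b7*, an aldose reductase, went from 100 to 1.14 CPM, but its UMIs lay in cells with epithelial UMIs: it was at 381 CPM there and at 0 CPM in the 3 classes of the young library. *Psmb7*, a proteasome subunit, was higher in old gated cells (43.9 and 97.0 CPM) and in the other cells by about the same ratio (40.8 and 88.0 CPM). *Mfap2*, a microfibril protein, went from 39.8 to 81.4 CPM and *Aard* from 32.4 to 71.1 CPM, with 11.8 and 9.77 CPM and 3.17 and 3.35 CPM in the other cells. The transcript 6030408B16Rik went from 19.6 to 50.5 CPM.

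Homeobox genes give cells their position along the body and along the tract. Of 17 measured, 6 were past 2-fold higher and 2 lower in the old library, where 3.77% and 1.85% of all genes tested were, and the other 9 were within 2-fold. *Hoxc8* (chr15:102990607-102994111 on GRCm38) went from 234 CPM (95% Poisson interval 218 to 251) to 501 CPM (482 to 520), and *Hoxb7* from 20.2 to 69.0 CPM, *Hoxb8* from 23.8 to 59.1 CPM, *Hoxb6* from 27.3 to 64.0 CPM, *Hoxb2* from 17.8 to 39.8 CPM and *Hoxd8* from 26.4 to 55.7 CPM. *Hoxb6*, *Hoxb7*, *Hoxb8*, *Hoxb2* and *Hoxd8* were each higher in the other kept cells than in the gated cells of the same library, for example 107 and 150 CPM for *Hoxb6*. *Hoxc8* was not, at 18.8 and 24.8 CPM in the other cells. The genes that were lower were *Hoxa10*, from 69.5 to 20.8 CPM, and *Hoxd10*, from 40.1 to 8.96 CPM. Within the *Sfrp2*/*Wif1* class *Hoxa10* was at 248 and 237 CPM, but in cells without a UMI of any pair it went from 53.4 CPM (43 UMIs) to 5.37 CPM (5 UMIs), and with the class left out its log2 ratio was -1.62 against -1.69 with it. *Hoxc8* in that class went from 71.0 CPM (40 UMIs) to 718 CPM (176 UMIs), in the *Tnnt2*/*Postn* class from 441 to 794 CPM, and in cells without a UMI of any pair from 360 to 863 CPM. With the cells of the *Sfrp2*/*Wif1* class left out, *Hoxc8* had a log2 ratio of 0.88 and so lay within 2-fold.

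**Figure D4:**
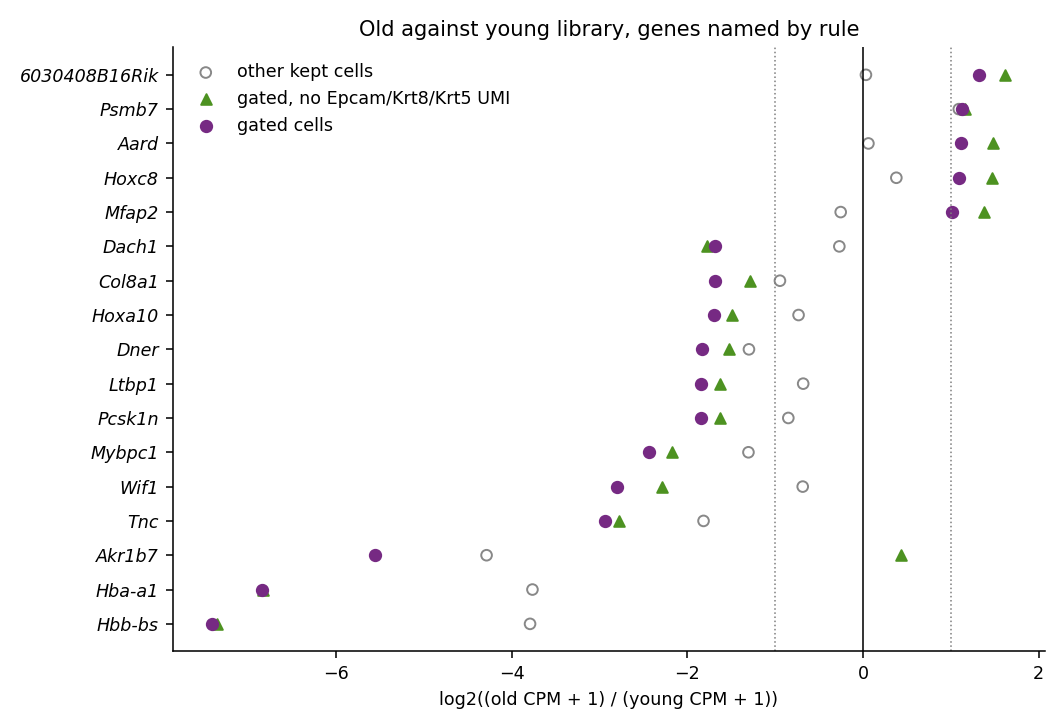
Log2 ratio of old to young CPM plus 1 (horizontal axis) for the 17 genes named by rule, in gated cells (filled circles), gated cells without a UMI of *Epcam*, *Krt8* or *Krt5* (triangles) and the other kept cells (open circles), with dotted lines at 2-fold. *Akr1b7* moves to 0.43 without the cells that hold epithelial UMIs, and *Psmb7* is higher by a like ratio in the other cells.

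Matrix, growth factor and senescence genes completed the age comparison. Of all genes tested 1.85% were past 2-fold lower and 3.77% higher. Of 34 matrix genes measured 4 were lower and 0 higher, among them *Fn1*, fibronectin, from 276 to 133 CPM, while *Sparc*, the most abundant, was not past 2-fold. Of 22 genes of BMP, TGF-beta, Wnt and insulin-like growth factor signalling, 8 were lower and 0 higher, with a median log2 of -0.67. *Rspo3* went from 456 to 214 CPM, *Bmp2* from 106 to 36.6 CPM, *Sfrp2* from 302 to 93.8 CPM, and *Id1*, a BMP target, from 174 to 49.4 CPM beside 231 and 51.8 CPM in the other kept cells. Genes that are often followed in senescent cells were lower where they differed, in 4 of 20 measured. *Cdkn1a*, the cell cycle inhibitor p21, went from 641 to 234 CPM beside 494 and 249 CPM in the other cells, and *Igfbp2*, the most abundant, from 1228 to 588 CPM. The 22 dissociation-stress genes, such as *Fos*, had 0 past 2-fold, and 0 of 29 nuclear genes of the respiratory chain were past it.

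The young and old libraries were next compared with the 3 diet single libraries, which share strain, single-mouse format and version of the counting software. UMIs were summed per mouse, and edgeR's quasi-likelihood test was fitted over 13 FVB/NJ mice, with the 8 pool mice adding to the estimate of the spread. Of 1934 genes tested, 130 were higher in the young and old libraries (6.72%) and 98 lower (5.07%) at an adjusted p of 0.05, together 11.8%. The comparison sets 2 libraries, 1 of each age, against 3 libraries of 47 gated cells in all, and the epithelium beside the muscle differed with it: all 10 seminal vesicle secretion genes tested were lower and 11 of 13 epididymal genes higher. Tissue, run and diet cannot be told apart in it.

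Among the genes selected by rule, *Hoxc8* had the largest log2 rise and *Isl1* the largest fall. The rule left out the secretion, epididymal and prostate lists, whose genes stood further apart. *Hoxc8* was at 254 CPM in the young and 571 CPM in the old library on the TMM scale, and had 0 UMIs in the 3 diet single libraries. The 3-count limit over those libraries makes it at least 11.4-fold higher (edgeR adjusted p = 0.000817), and in the pool 7 of 8 mice were at 0 and the highest at 1.92 CPM. The groups do not overlap. *Isl1* (chr13:116298281-116309689), a LIM homeobox factor of mesodermal and neural development, was the mirror image, with 0 UMIs among all gated cells of the young and old libraries and 304, 137 and 82.9 CPM in the control, high fat and low protein library. It was called lower (edgeR adjusted p = 0.000203), with a pool median of 87.8 CPM and 1 pool mouse at 0. With the 3-count limit on the young and old side the ratio was 448-fold. That ratio takes the diet single mean as exact, though it rests on 15 UMIs, so it is no firm bound. *Rorb*, an orphan nuclear receptor, stood at 10.3 and 1.52 CPM against 304, 309 and 539 CPM (log2 -6.04, standard error 0.785, edgeR adjusted p = 0.000407) and between 181 and 624 CPM in the pool. Both mice were below all others for this gene. *Wt1*, a mesothelial and gonadal factor, was at 7.09 and 5.87 CPM against 371, 240 and 0 CPM (edgeR adjusted p = 0.00427) and lost its call without the control library (0.0634) and without cells holding *Epcam*, *Krt8* or *Krt5* UMIs (0.0601). The low protein library lies below both mice, so the groups overlap.

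Several receptors and channels were among the genes that were lower. *Ptger3*, a prostaglandin E receptor, stood at 0.967 and 1.30 CPM against 236, 103 and 249 CPM (log2 -7.19, standard error 1.06, edgeR adjusted p = 0.000817), and the pool had a median of 36.0 CPM. *Gabra2*, a GABA-A receptor subunit, stood at 8.05 and 1.09 CPM against 169, 137 and 456 CPM (log2 -5.76, standard error 0.868), with a pool median of 55.4 CPM. In the diet single libraries *Ptger3* rests on 16 UMIs and *Gabra2* on 20. *Kcnk3*, a potassium leak channel, stood at 18.04 and 3.26 CPM against 135, 103 and 249 CPM, and its call was lost without the low protein library (edgeR adjusted p = 0.0868). *Prune2* had a log2 difference of -5.91 (standard error 0.881) and *Defb1*, a beta defensin, of -3.45 (standard error 0.527, edgeR adjusted p = 0.000872). The *Sfrp2*/*Wif1* class held 44.7% of gated cells of the diet single libraries and 10.2% of those of the young and old ones. *Wif1* sorts cells into this class, so the share restates part of its own counts. *Wif1* was lower by a log2 of -5.16, at 94.4 and 13.3 CPM against 1924, 2129 and 1699 CPM. Without the old library it did not pass (edgeR adjusted p = 0.112), nor with the gate at 2 UMIs a side (0.0565). The matrix gene *Col15a1* stood at 10.95 and 21.97 CPM against 135, 412 and 82.9 CPM (log2 -3.68), and lost its call without the high fat library (edgeR adjusted p = 0.136) and with the gate at 2 UMIs a side (0.113). *Hmcn2*, another matrix gene, stood at 1.93 and 1.74 CPM against 101, 0 and 166 CPM, which overlap and rest on 7 UMIs in the diet single libraries (log2 -5.42). Without the control library it did not pass (edgeR adjusted p = 0.0524).

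Among the genes that were higher, *Cbx5*, a heterochromatin protein, stood at 328 and 487 CPM against 0, 34.3 and 41.4 CPM (log2 4.07, standard error 0.633, edgeR adjusted p = 0.000964), with 48.1 to 128 CPM in the pool. *Htatsf1*, a splicing-linked factor, stood at 469 and 460 CPM against 67.5, 34.3 and 0 CPM, with at most 83.04 CPM in the pool. *Rrad*, a small GTPase that restrains calcium channels, stood at 1120 and 878 CPM against 0, 34.3 and 41.4 CPM, and *Socs1*, an inhibitor of cytokine signalling, at 201 and 224 CPM against 0, 34.3 and 0 CPM. *Stk26*, a kinase, had 0 UMIs in the diet single libraries and was at least 5.26-fold higher (edgeR adjusted p = 0.00443). *Tmem252* and *Car14* (a carbonic anhydrase) had 0 UMIs there too. Their bounds were 9.30 and 4.32-fold, and their calls were lost without the old library for *Tmem252* (edgeR adjusted p = 0.0505) and without the control or high fat library for *Car14* (0.0537 and 0.0506).

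Of the 24 genes the rule for this comparison selected, 13 were called in every alternative fit that tested them: *Hoxc8*, *Stk26*, *Rrad*, *Socs1*, *Cbx5*, *Htatsf1*, *Fosb*, *Isl1*, *Ptger3*, *Rorb*, *Prune2*, *Gabra2* and *Defb1*. The genes were selected for their difference from the diet single libraries.

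Of 18 contractile genes tested outside the gate, 2 were lower and 0 higher, where 5.07% and 6.72% of all genes tested were, with a median log2 of -0.47 against 0.05 over all genes. *Synpo2*, an actin-bundling protein, stood at 234 and 163 CPM against 1013, 824 and 1036 CPM (log2 -2.27, standard error 0.358, edgeR adjusted p = 0.00103). *Tagln* stood at 4403 and 3682 CPM against 16711, 8171 and 15003 CPM (log2 -1.72, edgeR adjusted p = 0.0157), and without any of the young, old, control or low protein library it did not pass (0.0501 to 0.146), nor without TMM (0.0681). *Acta2* stood at 10326 and 9212 CPM against 12559, 8755 and 14796 CPM and *Myl9* at 4781 and 4105 CPM against 4591, 3296 and 3689 CPM. *Acta1*, whose promoter is printed above, was lower at 136 and 116 CPM against 1823, 996 and 1616 CPM (log2 -3.55, standard error 1.05, edgeR adjusted p = 0.0384). It lost its call in each of the 5 fits without 1 library (0.0624 to 0.194), with the gate at 2 UMIs a side (0.0657) and without cells holding epithelial UMIs (0.0748), and the pool ran from 29.5 to 2303 CPM.

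Of 2 Hedgehog genes 1 was called and of 16 signalling genes 3, where 11.8% of all genes tested were. *Ptch1* was higher at 166 and 246 CPM against 0, 0 and 41.4 CPM (log2 4.07, standard error 0.945, edgeR adjusted p = 0.0107), 1 of 2 Hedgehog genes tested, and did not pass without the old, the control or the high fat library (0.0502 to 0.0611), with the gate at 2 UMIs a side (0.0687) or without cells holding epithelial UMIs (0.0527). The pool stood at 25.7 to 111 CPM. Of 16 signalling genes tested, *Chrdl1* (231 and 318 CPM against 67.5, 34.3 and 41.4 CPM) and *Igfbp7*, a secreted binding protein, were higher and *Wif1* was lower. *Igfbp7* had a log2 of 1.05 and did not pass without the young, the old or the control library (edgeR adjusted p between 0.0600 and 0.0850). Of 29 matrix genes, *Npnt*, a basement membrane ligand of integrins, was higher, with 203 and 232 CPM against 67.5, 34.3 and 0 CPM, and *Col15a1* and *Mfap5* were lower. *Npnt* passed in 1 and *Mfap5* in 2 of the 5 fits without 1 library, and neither passed with the gate at 2 UMIs a side (edgeR adjusted p = 0.115 and 0.117).

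Of 21 dissociation-stress genes tested, 11 were higher, 0 were lower and 10 did not pass, where 6.72% and 5.07% of all genes tested were higher and lower, with a median log2 of 1.41 against 0.05 over all genes. *Fos* stood at 6703 and 5877 CPM against 844, 858 and 828.9 CPM (log2 2.90, standard error 0.405, edgeR adjusted p = 0.000639), *Fosb* at 3628 and 2410 CPM against 67.5, 275 and 414 CPM, and *Jun* at 3657 and 3445 CPM against 844, 275 and 746 CPM. *Klf4*, a factor that represses contractile genes and an immediate early gene as well, stood at 1227 and 941 CPM against 101, 309 and 166 CPM. For *Fos* the pool lay between, at 1449 to 4100 CPM. The 22 listed genes summed to 41216 CPM in the young and 35886 CPM in the old library. Their sums were 13012 to 16779 CPM in the diet single libraries and 22447 to 39629 CPM in the pool, a range that holds the old library. *Klf4* lost its call in the contrast with the diet pool (edgeR adjusted p = 0.0862). The list is known to respond to tissue handling, and how the dissections differed was not tested. The mitochondrial share of the gated cells had a median of 4.98% in the young and 4.64% in the old library, 5.35% to 5.98% in the diet single libraries and 2.40% to 3.66% in the pool. Of 8 interferon and antigen genes tested, *Irf1* (565 and 459 CPM against 67.5, 103 and 166 CPM) and *Isg15* were higher, the latter in none of the 5 fits without 1 library. Of 16 genes of the senescence list tested, 2 were lower and 0 higher, the chemokines *Cxcl12* and *Ccl2*. Each passed in only 1 of those 5 fits and not with the gate at 2 UMIs a side (edgeR adjusted p = 0.251 and 0.266).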

How the data were processed

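The deposited values were UMI counts per gene and cell, made by the authors with Cell Ranger 3.1.0 (single-mouse libraries) and 6.0.1 (pools) on mm10 per the labels, with Seurat named in the submitters' notes. The 30406 genes shared by all tables were used, and 7 samples gave 23 mice. Cells with at least 500 genes and at most 10% mitochondrial UMIs were kept, the gate was applied, and UMIs were summed per mouse. Old and young were compared as CPM with a pseudocount of 1, exact Poisson 95% intervals and no test. Young and old were compared with the diet single libraries by edgeR 4.0.16 (quasi-likelihood, TMM, Benjamini-Hochberg adjustment, R 4.3.3), in 13 mice with at least 10 gated cells, on genes kept by edgeR's filterByExpr at its default settings. Where a group had 0 UMIs, the bound used 3 counts over the group and took the mean of the other group as exact. The p-values measure only the spread between mice within the sets, and 8 of the 13 mice came from 1 tagged pool. Spread between separately run libraries enters only through the 2 young and old and the 3 diet single libraries.

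Named genes in the comparison between libraries had an adjusted p under 0.05, at least 20 CPM in the higher set and at least 2 times the other kept cells, the 12 largest each way. In the age comparison they had at least 50 CPM in the higher library, no less than its other kept cells, and were past 2-fold, again up to 12 each way. From each gene list, abundant and most changed members were named. The members and lists were chosen with earlier results of these data known. The 3 marker classes were chosen after the data were seen. Some selected genes are not reported here. Doublets were not called. The edgeR step was tested on simulated data. Alternatives were DESeq2 1.42.0, other filters, gates and contrasts, thinning, and leaving out each library. Promoters were from RefSeq on GRCm38.p6.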

Additional observations from a re-analysis of the deposited data

Results flagged for a closer look

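Of 29 groups of values from the 8 diet pool mice, 4 had a highest mouse set apart by Dixon's criterion, which chance meets in about 1 in 20 groups. *Hoxc8* was at 1.92 CPM (1 UMI) in a caloric restriction mouse and at 0 in the other 7 mice, where any single UMI meets the criterion, so it says nothing beyond that count. *Stk26* was at 51.3 CPM (4 UMIs) in a low protein mouse, with the next at 29.5 CPM. *Mzt2* reached 415 CPM (15 UMIs) and *Hmcn2* 138 CPM (5 UMIs) in the same control mouse, with the next at 251 and 66.9 CPM.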

How the results depend on the processing

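With a mitochondrial limit of 5% the gate held 924 young and 1240 old cells. Genes past 2-fold higher in the old library numbered 94 without cells holding *Epcam*, *Krt8* or *Krt5* UMIs, 130 among genes of at least 50 CPM and, chosen after seeing the data, 371 without the *Tnnt2*/*Postn* class. Genes past 2-fold lower numbered 70 at 50 CPM and 205 with cells thinned to 2000 UMIs. The log2 ratio of *Akr1b7* turned to 0.43 without cells holding epithelial UMIs. *Hoxc8* without the *Sfrp2*/*Wif1* class (0.88), *Aard* without the *Tnnt2*/*Postn* class (0.97) and *Mfap2* without the *Tnnt2*/*Postn* (0.79) or *Rergl*/*Sncg* class (0.93) fell under 2-fold.

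Against the diet single libraries, calls were 337 higher and 55 lower without TMM, where the median log2 of all genes was 0.67, beside 130 and 98 with it. With no filter 305 were higher, and with the gate at 2 UMIs a side 65 were lower. Against the diet pool 300 were higher and 305 lower, and against the mean of both sets 231 and 171. DESeq2 tested 6523 genes and called 93 and 141. Leaving out 1 library gave 71 to 107 higher and 44 to 68 lower, the fewest without the old library. The cause of these shifts was not tested.

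*Tnnt2* in gated cells stood at 332 CPM in the young and 397 CPM in the old library with the gate at 2 UMIs a side, and at 344 and 489 CPM without epithelial UMIs. *Hhip* in the old library stood at 299.7 CPM with the stricter gate and 417 CPM without epithelial UMIs, where the young library had 514 CPM. Thinned to 1000 UMIs, the shares were 21.0% and 26.6% for *Tnnt2* and 30.6% and 26.8% for *Hhip*. These gates were added after seeing the data. A minimum of 20 gated cells a mouse could not be fitted, since no diet single library reaches it. No paired analysis was possible because the young, old and diet single libraries are 1 mouse each and no label pairs them. The replicate number 1 that they all carry only counts the mouse within its group.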
